A study of Homo sapiens with 44 samples.

Results

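Leukocytes that enter the gut wall meet ligands on stromal cells that hold them in place or restrain them, and 7 genes for such ligands are described here in the human colon fibroblast line Ccd-18Co. The 7 genes, ICAM1, VCAM1, CD274, PDCD1LG2, CD47, ALCAM and F11R, were taken from a given list of symbols, and each was found as 1 of the 40663 gene symbols of the count table. The line was grown from colon tissue and is a single cell line, so the 44 bulk RNA sequencing libraries speak for 1 source of cells. Cells in 48-well plates were kept without serum for 72 h and were then left unstimulated or given 1 of 10 recombinant cytokines for 24 h, with 4 libraries in each of 11 groups. Every cytokine was used at 10 ng per ml apart from IL-1β, which the labels give at 0.1 ng per ml and a legend of the study at a lower dose. The cytokines were TNF, IL-1β, IFNα, IFNγ, oncostatin M (OSM), IL-6, IL-13, IL-17A, IL-22 and TGF-β1. All groups therefore shared the serum starvation, and all 10 cytokines were compared with the same 4 unstimulated libraries.

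ICAM1 and VCAM1 encode immunoglobulin-family ligands of leukocyte integrins: ICAM1 binds the β2 integrins LFA-1 and Mac-1, and VCAM1 binds the α4 integrins. ALCAM (CD166) binds CD6 on T cells and also binds itself, and F11R encodes the junctional molecule JAM-A. CD274 and PDCD1LG2 encode PD-L1 and PD-L2, the ligands of the inhibitory T cell receptor PD-1, and CD47 is the surface signal that restrains phagocytosis through SIRPα and also binds thrombospondin. In many cells NF-κB acts on ICAM1 and VCAM1 downstream of TNF and IL-1, and interferons act on CD274 through IRF1.

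Library totals ran from 742173 to 2213424 estimated counts, with a median of 1480882. CPM are counts scaled by the library total times its TMM normalization factor. Genes at a few CPM therefore rest on a few counts in each library. All 8 fibroblast markers (COL1A1, COL1A2, COL3A1, VIM, PDGFRB, DCN, LUM and THY1) were detected, and their summed level was 16480 to 51800 CPM per library. The 8 leukocyte markers summed to 0 to 73.4 CPM, nearly all of it CD68, with CD3E at 0 in all libraries. The 6 endothelial markers summed to 0 to 5.99 CPM, with KDR at 0 and TEK counted in 24 libraries (up to 5.09 CPM). The 6 epithelial markers summed to 0.826 to 28.2 CPM, with CDX2 at 0. Of these, VIL1 was counted in 43 libraries (up to 26.4 CPM) and KRT8 in 32 (up to 5.94 CPM). Over the 500 most variable genes, 35 of 44 libraries lay nearest to the mean of their own group, and the other 9 all belonged to the unstimulated, IL-6 and IL-22 groups. The library farthest from its own group was IFNγ replicate 2, at a distance of 33.8 on the log2 scale against 20.6 to 30.3 for the rest, and the IFNγ values it moves are also given without it.

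The promoters of the 3 members with matches to known response elements, ICAM1, VCAM1 and CD274, are shown. Whether the matches bear on the responses to cytokines was not tested. RefSeq promoter sequence was at hand for 5 of the 7 members, and the 250 bases before each start were searched on both strands for GGNNNTTCC (an NF-κB-like core), the core of the interferon-stimulated response element (GAAA, any 2 bases, GAAA) and TTCNNNGAA (a STAT-type GAS core). Capitals mark the matches. Bases that lie within the annotated gene are left out. The ICAM1 stretch is chr19:10270870-10271092, the VCAM1 stretch is chr1:100719492-100719741 and the CD274 stretch is chr9:5450292-5450502, all on the plus strand of GRCh38.p14.
ICAM1: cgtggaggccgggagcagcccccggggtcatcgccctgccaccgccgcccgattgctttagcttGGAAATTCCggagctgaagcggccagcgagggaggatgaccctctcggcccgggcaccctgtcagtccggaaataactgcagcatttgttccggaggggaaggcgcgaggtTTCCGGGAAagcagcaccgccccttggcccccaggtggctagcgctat
VCAM1: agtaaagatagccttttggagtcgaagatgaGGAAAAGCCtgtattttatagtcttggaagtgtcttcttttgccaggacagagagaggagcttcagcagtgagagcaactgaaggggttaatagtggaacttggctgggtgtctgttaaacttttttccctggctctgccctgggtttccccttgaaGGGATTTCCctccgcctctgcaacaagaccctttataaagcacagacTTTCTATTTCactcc
CD274: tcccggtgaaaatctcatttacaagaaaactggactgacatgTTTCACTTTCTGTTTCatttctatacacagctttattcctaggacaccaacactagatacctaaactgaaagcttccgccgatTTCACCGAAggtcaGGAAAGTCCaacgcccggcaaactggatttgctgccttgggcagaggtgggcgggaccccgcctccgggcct

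The ICAM1 window held 1 NF-κB-like match, 178 to 186 bases before the RefSeq start, and 1 GAS match, 67 to 75 bases before it. For ICAM1 and CD274 the RefSeq start lies downstream of the annotated gene start, just before which the printed stretch ends. The VCAM1 window held 2 NF-κB-like matches and 1 match to the interferon element, the last of these 6 to 15 bases before its start. The CD274 window held 1 NF-κB-like match, 1 GAS match and 2 matches to the interferon element that overlap each other. No match to any of the 3 patterns was found in the windows of CD47 and ALCAM, which says only that these letters are not there. The CD47 window (chr3:108091032-108091281) lies wholly inside the annotated gene, so no base before the annotated start of CD47 was searched. Of 35116 promoters searched the same way, 17.1% held the NF-κB-like pattern, 3.02% the interferon element and 6.57% the GAS pattern, so a match is a description of the sequence and not a site of binding.

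In unstimulated cells the members differed widely in level. Per kilobase of the annotated canonical transcript, CD47 stood at 88.3 CPM, ALCAM at 43.8, VCAM1 at 17.1, CD274 at 8.43 and PDCD1LG2 at 8.16 CPM per kb. ICAM1 and F11R were listed at 0 in all 4 unstimulated libraries, and a count of 0 allows a level of up to 3 counts, or 1.94 CPM on average. Serum-starved Ccd-18Co cells thus had measurable CD47, ALCAM, VCAM1, PD-L1 and PD-L2 transcripts and no counted ICAM1 or F11R.

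**Figure D1:**
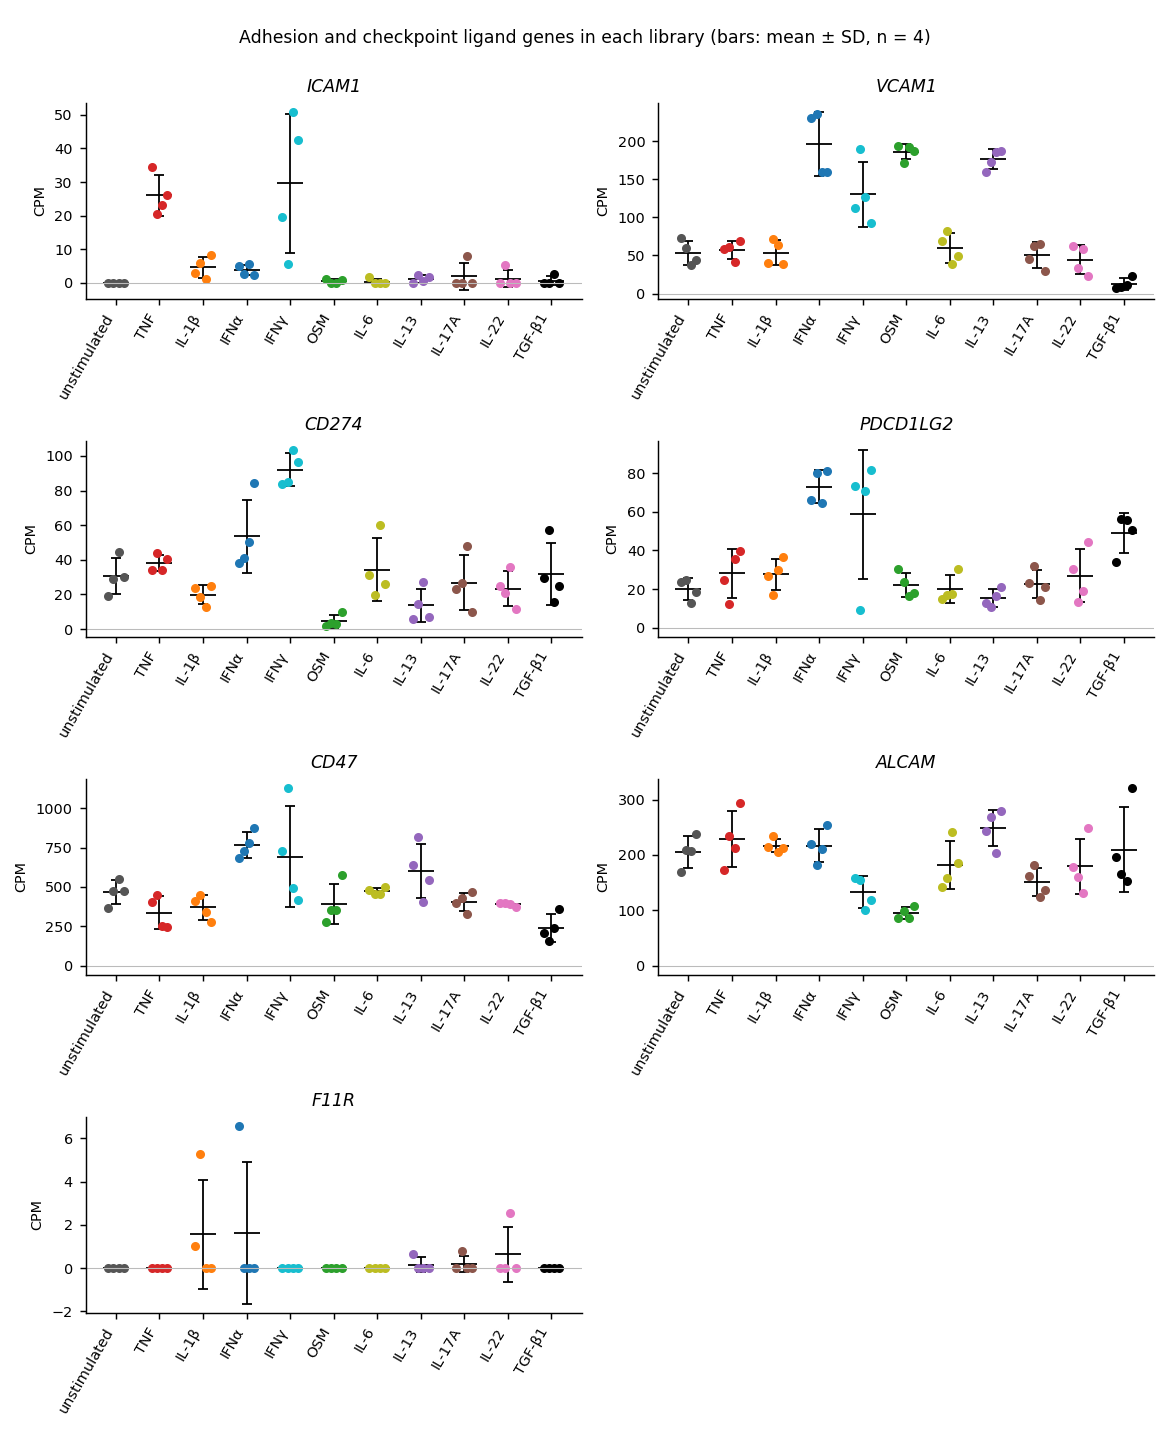
Level of each of the 7 genes in CPM on the vertical axis, with 1 point per library and the mean ± SD (n = 4) of each group as bars, for the unstimulated group and the 10 cytokines on the horizontal axis. ICAM1 was at 0 in all unstimulated libraries and reached 20.5 to 34.4 CPM with TNF, VCAM1 was high with IFNα, IFNγ, OSM and IL-13 and low with TGF-β1, and the F11R panel is at 0 for nearly all libraries. Lower ends of bars under 0 come from the SD and are not levels.

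Of the 7 genes, 6 passed the filter on low counts and were tested with edgeR's quasi-likelihood fit of all 44 libraries, with Benjamini-Hochberg adjustment over the 9513 genes tested and a call at an adjusted p under 0.05; F11R did not pass. ICAM1 passed only through the groups in which it was high, so its presence among the tested genes is no support for a difference. Of the 60 tests of a member against unstimulated cells, 17 were called. The share of all genes called stands beside the first count of each comparison and direction, because a share of members near that background is not a result about the members. In bulk libraries, fewer cells with a transcript and less of it per cell cannot be told apart.

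With TNF, 1 of the 6 tested members rose, ICAM1, where 5.37% of all genes were called higher. With IL-1β the single member called was again ICAM1, against 3.46% of all genes higher. IFNα raised 3 of 6 members, ICAM1, VCAM1 and PDCD1LG2, against 4.99% of all genes. IFNγ moved 5 of 6: ICAM1, VCAM1, CD274 and PDCD1LG2 rose against 5.52% of all genes called higher, and ALCAM fell against 5.12% called lower.

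OSM raised VCAM1, with 1.42% of all genes called higher, and lowered CD274 and ALCAM, with 2.54% called lower. IL-13 raised VCAM1 alone among the members, with 1.53% of all genes higher. TGF-β1 raised PDCD1LG2, with 2.61% of all genes called higher, and lowered VCAM1 and CD47, with 3.08% called lower. The 3 remaining cytokines moved no member past the threshold. For IL-6 edgeR called 0 of 6 members against 0.0105% of all genes in either direction, with 0 members at an unadjusted p under 0.05 and 0 called by DESeq2. For IL-17A edgeR called 0 members against 1.52% of all genes, with 2 members at an unadjusted p under 0.05 and 0 called by DESeq2. ICAM1 was among those 2, and DESeq2 gave it no adjusted p, so DESeq2 could not have called it. For IL-22 edgeR called 0 members and 0% of all genes, with 1 member (ICAM1) and 1037 genes at an unadjusted p under 0.05, and DESeq2 called 0 members and 112 genes. In this comparison DESeq2 gave no adjusted p for ICAM1, CD274 and PDCD1LG2, so it could not have called them.

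**Figure D2:**
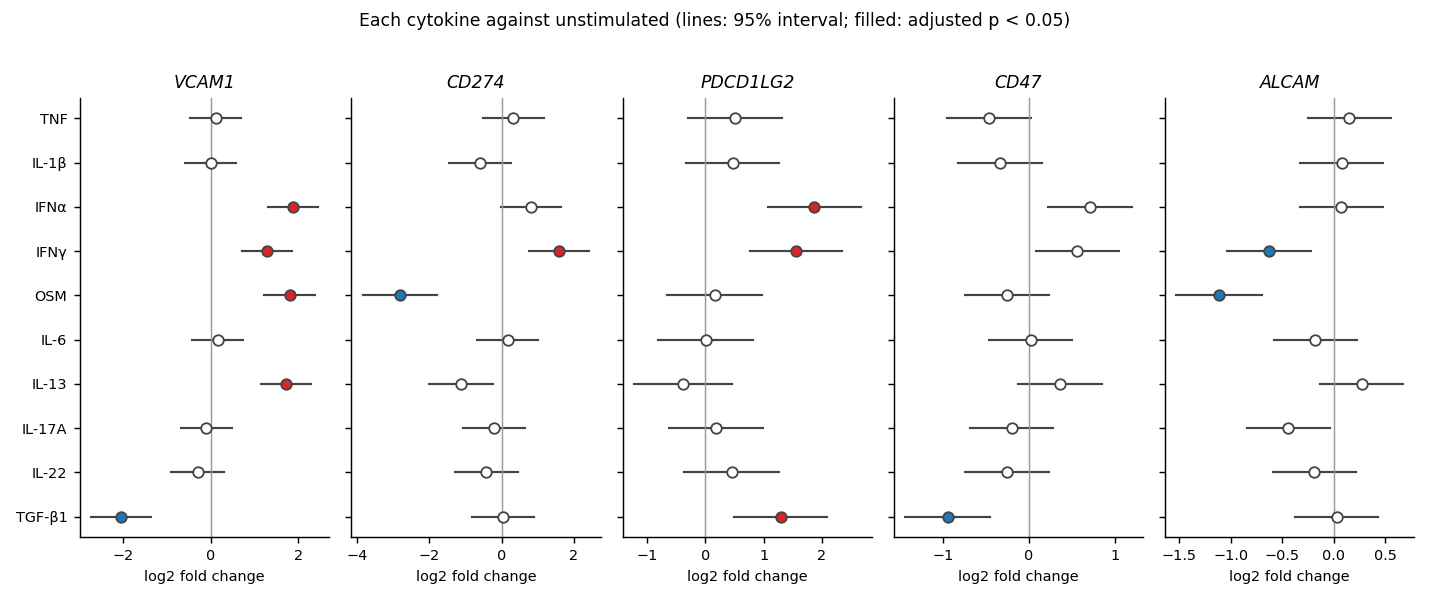
Log2 fold change of 5 members on the horizontal axis, 1 panel per gene with its own scale, for each cytokine against unstimulated cells on the vertical axis. Points are the edgeR estimates, lines are unadjusted 95% intervals, and red or blue points passed the adjusted threshold as higher or lower. VCAM1 has 4 cytokines in red and TGF-β1 in blue, CD274 has IFNγ in red and OSM in blue, and ICAM1 is left out because a fold against 0 counts has no fitted value that can be read.

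ICAM1 (chr19:10271093-10286615, plus strand, GRCh38) rose from no counts in unstimulated cells to its highest levels with IFNγ and TNF. The 4 TNF libraries held 34.4, 20.5, 23.1 and 26.1 CPM, from 24 to 49 counts each. The 4 IFNγ libraries held 19.5, 5.78, 50.8 and 42.5 CPM. TNF gave an even response and IFNγ an uneven one, with replicate 2 at the bottom, and neither group touched the unstimulated libraries. Set against the 3-count limit of the unstimulated libraries, mean ICAM1 was 13.4-fold higher with TNF (edgeR adjusted p = 0.000105) and 15.3-fold higher with IFNγ (adjusted p = 7.56e-05). These ratios use group means and leave out the spread between the stimulated libraries. Both calls held when each library was left out in turn, but DESeq2 gave no adjusted p for ICAM1 in the IFNγ comparison.

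Mean ICAM1 was lower with IL-1β and IFNα than with TNF and IFNγ, and the direct comparisons that were made are given below. IL-1β libraries held 3.01, 5.93, 1.26 and 8.38 CPM, on 2 to 13 counts. IFNα libraries held 4.93, 2.62, 5.53 and 2.48 CPM, on 4 to 9 counts. All 8 held counts where the unstimulated libraries held none, and IL-1β replicate 3, on 2 counts, lay within what a count of 0 allows. The mean over the 3-count limit was 2.39-fold for IL-1β (edgeR adjusted p = 0.0169) and 2.0-fold for IFNα (adjusted p = 0.0213). The IL-1β call was lost without IL-1β replicate 4 or unstimulated replicate 1, with an adjusted p of up to 0.0554, and the IFNα call was lost without unstimulated replicates 1, 2 or 4, with an adjusted p of up to 0.054. With IL-17A and IL-22, ICAM1 was seen in 1 library each, at 7.96 and 5.24 CPM, and the other 3 libraries of either group were at 0. In the order of mean levels, TNF and IL-1β were the only neighbours whose libraries did not overlap, at 20.5 CPM or more against 8.38 CPM or less.

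The ICAM1 value has a limit set by the locus. ICAM4-AS1, a long non-coding RNA gene on the opposite strand, shares 815 exonic bases with ICAM1, and LIMASI shares 61. Whether strand was used in counting is not given in the sources used here. Reads from the shared bases may therefore have been counted for either gene, while reads from the rest of ICAM1 are not touched by this overlap. ICAM4-AS1 stood at 13.0 ± 8.30 CPM with TNF and 10.0 ± 6.15 CPM with IFNγ, against 0.535 ± 0.695 CPM without stimulation (SD, n = 4 each). It was called higher with TNF (log2 fold change 4.27, SE 1.07, adjusted p = 0.00501) and with IFNγ (3.90, SE 1.07, adjusted p = 0.0121). Summed over both genes, the TNF libraries reached 27.4 to 59.6 CPM and the IFNγ libraries 6.60 to 64.6 CPM, against 0 to 1.46 CPM in unstimulated libraries, so the sum separated the same groups.

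**Figure D3:**
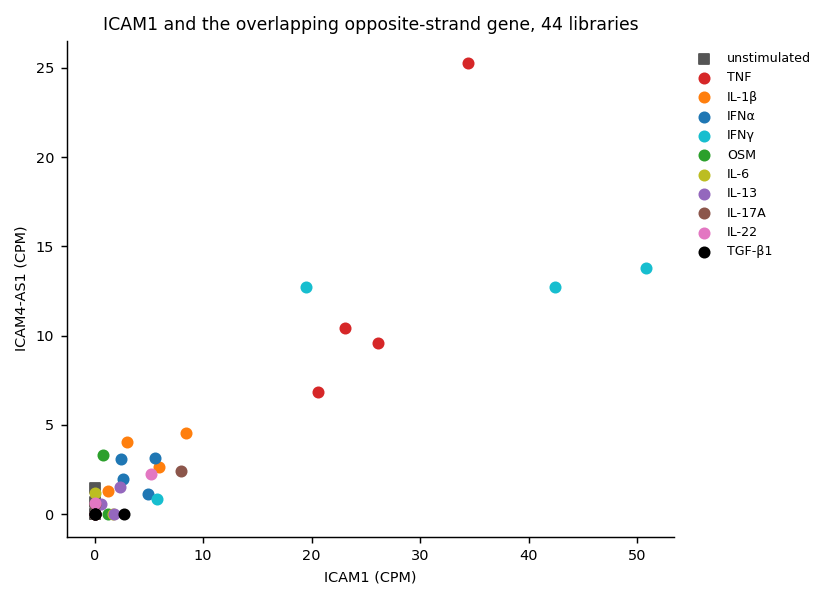
ICAM1 on the horizontal axis against ICAM4-AS1, the gene on the opposite strand, on the vertical axis, both in CPM, with 1 point for each of the 44 libraries coloured by group. The TNF and IFNγ libraries hold the high values of both genes, apart from IFNγ replicate 2 at 5.78 CPM of ICAM1, and the other groups crowd near the origin.

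VCAM1 (chr1:100719742-100739045, plus strand) was called higher with both interferons, OSM and IL-13 and was not called with TNF or IL-1β, which raised ICAM1. Unstimulated libraries held 72.5, 59.4, 37.1 and 43.5 CPM. TNF libraries held 58.2, 60.8, 41.8 and 69.2 CPM, and IL-1β libraries 39.6, 71.8, 63.8 and 39.3 CPM. These 3 groups overlapped throughout. The log2 fold change was 0.11 with TNF (95% interval -0.47 to 0.70) and 0.00 with IL-1β (-0.58 to 0.59), so a rise beyond 0.70 on the log2 scale lies outside the interval of either cytokine.

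IFNα libraries held 230.0, 234.9, 159.5 and 159.7 CPM of VCAM1. OSM libraries held 194.2, 171.4, 192.3 and 186.9 CPM, and IL-13 libraries 159.0, 172.6, 185.8 and 187.1 CPM. Every library of these groups lay above all 4 unstimulated libraries. The fold was 3.67 with IFNα (log2 1.88, SE 0.29, adjusted p = 3.5e-06), 3.48 with OSM (log2 1.80, SE 0.29, adjusted p = 2.85e-05) and 3.30 with IL-13 (log2 1.72, SE 0.29, adjusted p = 6.2e-05). IFNγ gave 112.3, 189.9, 126.6 and 92.0 CPM, a 2.43-fold rise (log2 1.28, SE 0.29, adjusted p = 0.00155). The highest of those values was replicate 2, and without it the log2 fold change was 1.07 and still called.

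TGF-β1 was the cytokine that lowered VCAM1. Its libraries held 6.98, 8.46, 11.7 and 23.3 CPM, all under the unstimulated range. VCAM1 fell by 2.04 on the log2 scale (SE 0.34, adjusted p = 5.66e-05), to 12.6 ± 7.41 CPM from 53.1 ± 16.0 CPM (SD, n = 4 each), and this call held in each of the 8 fits that left out a library. In the order of mean levels, IFNγ and IL-6 were the only neighbours without overlap, at 92.0 CPM or more against 81.9 CPM or less, so the 4 inducing cytokines stood apart as a group and their order among themselves was within the spread.

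CD274 (chr9:5450503-5470566) and PDCD1LG2 (chr9:5510531-5571282) lie on the plus strand of chromosome 9 with 40.0 kb between them, and encode the PD-1 ligands. Both were called higher with IFNγ, CD274 alone was called with OSM, and PDCD1LG2 alone was called with IFNα and TGF-β1. Unstimulated libraries held 19.0, 29.0, 44.8 and 29.9 CPM of CD274. IFNγ raised it to 83.9, 85.0, 103.4 and 96.2 CPM, a 3.02-fold rise (log2 1.59, SE 0.41, adjusted p = 0.00722) with every library above the unstimulated ones, and it stayed called whichever library was left out. IFNα gave 38.3, 41.2, 50.5 and 84.2 CPM, which overlapped the unstimulated libraries. Its log2 fold change was 0.81 (95% interval -0.02 to 1.64, adjusted p = 0.248) and was 0.52 without replicate 4, the highest library.

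OSM libraries held 1.82, 3.54, 2.65 and 9.84 CPM of CD274, on 3 to 12 counts. This was the lowest group of the series for PD-L1, and all 4 values lay under the unstimulated range. CD274 fell by 2.82 on the log2 scale (SE 0.51, adjusted p = 0.00023), a 7.07-fold lower level, and stayed called in each of the 8 fits that left out a library. Without OSM replicate 4, the highest of the group, the log2 fold change was -3.47. IL-13 libraries held 5.94, 14.6, 27.0 and 7.06 CPM, with a log2 fold change of -1.12 (SE 0.44, adjusted p = 0.168) that was -1.69 and called (adjusted p = 0.0457) without replicate 3. With TNF the log2 fold change of CD274 was 0.33 (95% interval -0.51 to 1.16), and with IL-1β it was -0.61 (-1.47 to 0.25).

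PDCD1LG2 stood at 23.8, 24.6, 12.6 and 18.3 CPM in unstimulated libraries. IFNα libraries held 66.3, 79.8, 64.7 and 81.1 CPM, a 3.65-fold rise (log2 1.87, SE 0.39, adjusted p = 0.000596) with no overlap. IFNγ libraries held 73.4, 9.08, 70.7 and 81.4 CPM. Replicate 2 of this group, on 11 counts, lay under all unstimulated libraries, while the other 3 lay far above them. The log2 fold change with IFNγ was 1.56 (SE 0.40, adjusted p = 0.00594) with replicate 2 and 1.94 without it (adjusted p = 5.18e-05), and the call was lost when only the 8 libraries compared were fitted (adjusted p = 0.0993). In the same library CD274 was at 85.0 CPM, inside the range of its group.

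TGF-β1 libraries held 34.1, 56.0, 55.9 and 50.3 CPM of PDCD1LG2, all above the unstimulated range. The rise was 2.45-fold (log2 1.29, SE 0.40, adjusted p = 0.0418). This call lay near the threshold and was lost in 6 of the 8 fits that left out a library, with an adjusted p of up to 0.113, and the log2 fold change stayed between 1.16 and 1.44. CD274 with TGF-β1 had a log2 fold change of 0.04 (95% interval -0.82 to 0.90), and PDCD1LG2 with OSM one of 0.16 (-0.66 to 0.97). The difference between the 2 genes in their response was not tested.

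**Figure D4:**
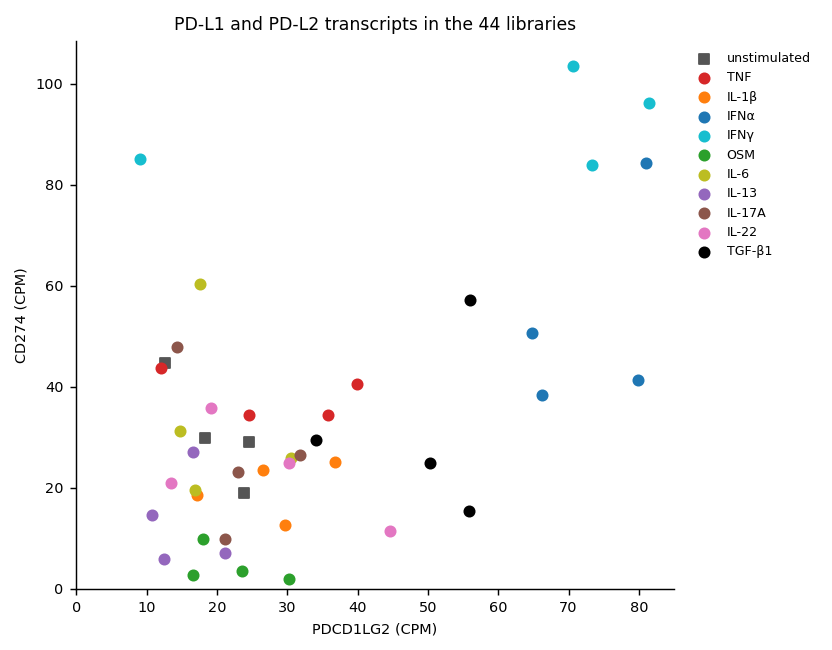
PDCD1LG2 on the horizontal axis against CD274 on the vertical axis, both in CPM, with 1 point for each of the 44 libraries coloured by group. Of the IFNγ libraries, 3 lie at the upper right and replicate 2 at the upper left, at 9.08 CPM of PDCD1LG2 and 85.0 CPM of CD274; the OSM libraries lie along the bottom, at 1.82 to 9.84 CPM of CD274.

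CD47 (chr3:108043091-108091862, minus strand) had the most counts of the 7 genes, with 30091 in all, and smaller changes. Unstimulated libraries held 369.3, 474.5, 553.1 and 472.5 CPM. TGF-β1 libraries held 208.5, 154.3, 240.8 and 362.5 CPM, all under the unstimulated range. CD47 fell by 0.95 on the log2 scale with TGF-β1 (SE 0.25, adjusted p = 0.0133), and the call was lost without TGF-β1 replicate 1 or 2, with an adjusted p of 0.055 and 0.0755, and when only the 8 libraries compared were fitted (adjusted p = 0.0559).

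IFNα libraries held 686.1, 725.6, 776.9 and 873.8 CPM of CD47, each above every unstimulated library. The log2 fold change of 0.71 (SE 0.24) had an adjusted p of 0.0517 and missed the threshold. It passed with DESeq2 (adjusted p = 0.0289) and with DESeq2's size factors in the edgeR fit (adjusted p = 0.0406). In edgeR it also passed when only the 8 libraries compared were fitted (adjusted p = 0.0135). Testing all genes with any count (0.00605) and using the replicate number as a block (0.0443) called it too. Of the 8 edgeR fits that left out a library, only 1 called it, with an adjusted p from 0.04 to 0.138. IFNγ libraries held 729.4, 1129, 492.8 and 415.3 CPM and overlapped the unstimulated ones. The log2 fold change with IFNγ was 0.57 (95% interval 0.08 to 1.05, adjusted p = 0.135) and was 0.25 without replicate 2, the library at 1129 CPM. With TNF it was -0.47 (-0.96 to 0.02) and with IL-1β -0.34 (-0.82 to 0.15).

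ALCAM (chr3:105366909-105576900, plus strand) was lowered by OSM and IFNγ. Unstimulated libraries held 168.8, 208.6, 207.0 and 238.3 CPM. OSM libraries held 85.9, 99.6, 86.9 and 108.2 CPM, a close set well under the unstimulated range. ALCAM fell by 1.11 on the log2 scale with OSM (SE 0.20, adjusted p = 0.000309), a 2.16-fold lower level. IFNγ libraries held 158.0, 155.2, 99.9 and 118.9 CPM, also under all unstimulated libraries. The fall of 0.63 with IFNγ (SE 0.20, adjusted p = 0.0361) was lost in 5 of the 8 fits that left out a library, with an adjusted p of up to 0.161, and when only the 8 libraries compared were fitted (adjusted p = 0.138). It stayed called without replicate 2. With IFNα the log2 fold change was 0.08 (95% interval -0.33 to 0.48), and IL-17A gave -0.44 (adjusted p = 0.348).

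F11R (chr1:160995211-161021343, minus strand) had 26 counts over all 44 libraries. IFNα replicate 1 held 12 of them (6.57 CPM) and IL-1β replicate 2 held 8 (5.27 CPM), while the other libraries held 2 or fewer. No group had F11R above 3 counts in more than 1 library, so no difference was detectable at this depth. A protein-coding gene on the same strand, ENSG00000270149, shares 1853 exonic bases with F11R. No row of the count table bore this identifier, and whether the gene was counted under another symbol is not known.

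Direct comparisons between cytokines in the same fit asked whether the members separate one stimulus from another. TNF and IL-1β, which both act through NF-κB and were used at different doses, separated no member: edgeR called 0 of 6 against 1.15% of all genes, with 2 members at an unadjusted p under 0.05 and 0 called by DESeq2. Those 2 were ICAM1, with a log2 fold change of 2.48 for TNF over IL-1β (95% interval 0.65 to 4.31, adjusted p = 0.22), and CD274, with 0.93 (0.07 to 1.79, adjusted p = 0.381). In both the 4 TNF libraries lay above the 4 IL-1β libraries. The ICAM1 difference was called when only these 8 libraries were fitted (adjusted p = 0.00813).

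Between the interferons, ICAM1 was higher with IFNγ than with IFNα, where 4.46% of all genes were called higher, and ALCAM was lower, where 4.93% were called lower. ICAM1 differed by 2.91 on the log2 scale (SE 0.93, adjusted p = 0.0384) and the libraries did not overlap, but the call held in only 2 of the 8 fits that left out a library. ALCAM differed by -0.70 (SE 0.20, adjusted p = 0.0188), a call kept in 5 of those 8 fits and lost when only the 8 libraries compared were fitted (adjusted p = 0.0638). For CD274 the estimate was 0.78 (95% interval -0.03 to 1.59), for PDCD1LG2 -0.31 (-1.06 to 0.44), for CD47 -0.15 (-0.63 to 0.34) and for VCAM1 -0.59 (-1.15 to -0.04, adjusted p = 0.20). None of these 4 passed the threshold. Without IFNγ replicate 2 the estimates were 0.06 for PDCD1LG2, which turned its direction, -0.48 for CD47 and -0.82 for VCAM1, and again none was called.

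TNF against IFNγ gave 1 member higher with TNF, ALCAM, where 3.5% of all genes were called higher, and 3 lower, VCAM1, CD274 and CD47, where 4.51% were called lower. ICAM1 was not shown to differ, with a log2 fold change of -0.19 (95% interval -1.86 to 1.49), while VCAM1 was 2.25-fold lower with TNF (log2 -1.17, adjusted p = 0.00446). Without IFNγ replicate 2 these were -0.53 for ICAM1, not called, and -0.94 for VCAM1 (adjusted p = 0.0383). CD274 was 2.41-fold lower with TNF (adjusted p = 0.0437) with no overlap of libraries, and the call was lost in each of the 8 fits that left out a library, with an adjusted p of 0.0555 to 0.108. CD47 was 2.05-fold lower (adjusted p = 0.00323), and without IFNγ replicate 2 the log2 fold change moved from -1.04 to -0.70 with an adjusted p of 0.0563, and the call was also lost when only the 8 libraries compared were fitted (adjusted p = 0.0784). ALCAM was 1.72-fold higher with TNF (adjusted p = 0.00863), a call lost without IFNγ replicate 3 (adjusted p = 0.0526), without TNF replicate 4 (0.0644) and when only the 8 libraries compared were fitted (0.0787). PDCD1LG2 differed by -1.05 (adjusted p = 0.0935), and by -1.41 without IFNγ replicate 2, where it was called (adjusted p = 0.00402).

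IL-13 and IFNγ both raised VCAM1 and differed in 4 other ligands. CD47 was not called between them, with a log2 fold change of -0.20 (95% interval -0.69 to 0.29). Without IFNγ replicate 2 the CD47 estimate was 0.14 and again not called. ALCAM was higher with IL-13, where 7.44% of all genes were called higher, and ICAM1, CD274 and PDCD1LG2 were lower, where 8.39% were called lower. CD274 was 6.57-fold lower with IL-13 (log2 -2.72, SE 0.44, adjusted p = 9.49e-06; -3.31 without IL-13 replicate 3) and PDCD1LG2 3.85-fold lower (log2 -1.94, SE 0.41, adjusted p = 0.000478; -2.30 without IFNγ replicate 2). ICAM1, with 0 to 3 counts in the IL-13 libraries, was called lower (adjusted p = 0.00164). Its fitted log2 fold change of -4.66 (95% interval -6.83 to -2.49) rests on those few counts, and with the IL-13 libraries set at their 3-count limit the difference was 13.7-fold. ALCAM was 1.86-fold higher (adjusted p = 0.00114), and the 4 calls of this comparison held in every fit that left out a library. VCAM1 differed by 0.44 (95% interval -0.12 to 0.99; 0.68 and not called without IFNγ replicate 2), so neither stimulus was shown to give more of it.

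**Figure D5:**
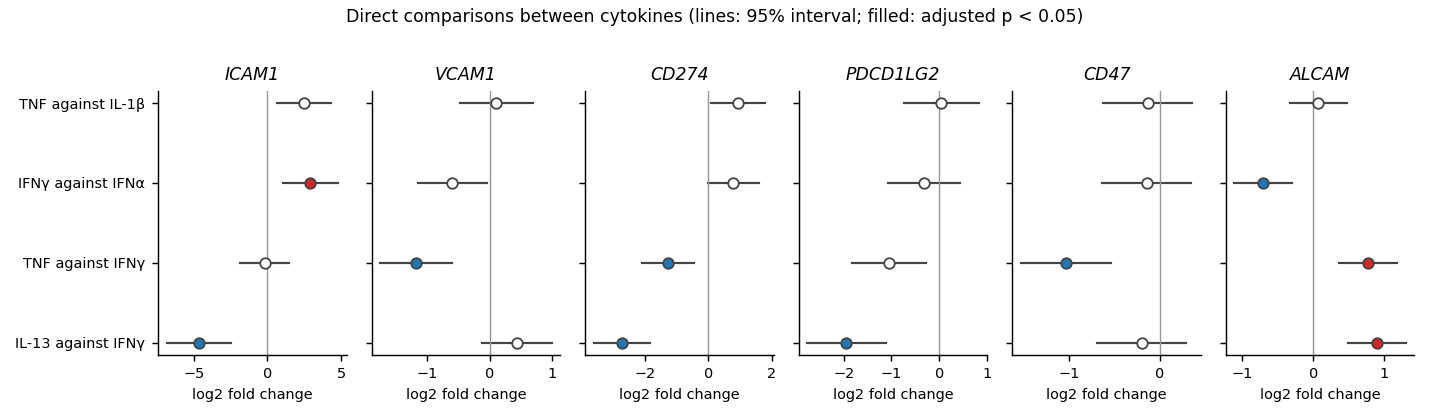
Log2 fold change of 6 members on the horizontal axis, 1 panel per gene with its own scale, for 4 comparisons between cytokines on the vertical axis; positive values are higher with the cytokine named first. Lines are unadjusted 95% intervals and filled points passed the adjusted threshold. The row of TNF against IL-1β has no filled point, and the row of IL-13 against IFNγ has CD274, PDCD1LG2 and ICAM1 in blue and ALCAM in red.

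Genes of the signalling routes to these ligands were looked at as a list of 17, of which 13 were tested. TNF and IL-1β each raised 2 of the 13, NFKBIA, the inhibitor and target of NF-κB, and NFKB1. NFKBIA reached 374.2 ± 24.1 CPM with TNF and 268.5 ± 27.8 CPM with IL-1β, against 44.4 ± 22.8 CPM (SD, n = 4 each; adjusted p = 7.31e-12 and 5.41e-10). These are the libraries in which ICAM1 rose and VCAM1 was not called. IFNα raised 6 of 13 and IFNγ 7 of 13, with list medians of 1.23 and 1.31 on the log2 scale against -0.01 over all genes for either cytokine. IRF1, an interferon-induced factor, rose by 4.52 with IFNγ (SE 0.52) and by 1.53 with IFNα (SE 0.51). OSM raised 1 of 13, SOCS3, a feedback inhibitor of cytokine receptors, by 4.81 (SE 0.86). IL-17A raised NFKBIA, and IL-6, IL-13 and IL-22 moved none of the 13 past the threshold by edgeR, with 0, 1 and 0 of them at an unadjusted p under 0.05 and 0 called by DESeq2.

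Of 21 other adhesion ligands 11 were tested. With TNF 2 fell, where 6.09% of all genes were called lower: MCAM by 1.94 and CD99, a molecule used in transmigration, by 0.76 on the log2 scale. With IL-1β 2 fell, where 3.92% of all genes were called lower: CD99 by 1.07 and CD44, a hyaluronan receptor, by 0.72. CDH2, N-cadherin, fell by 1.79 with IFNγ and by 0.95 with IL-17A and rose by 1.17 with TGF-β1. CD44 also fell by 0.64 with IL-17A and by 0.70 with TGF-β1, and CD58, the ligand of CD2, fell by 1.82 with OSM. E-selectin, P-selectin and MADCAM1 did not pass the filter. CD58 with TNF had a log2 fold change of 0.99 (adjusted p = 0.0909) and was not called.

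Of 18 other checkpoint ligands 7 were tested. HLA-E, the ligand of NKG2A, stood at 428.9 ± 149.2 CPM with IFNγ and 301.2 ± 106.8 CPM with IFNα, against 30.8 ± 26.5 CPM (SD, n = 4 each; adjusted p = 2.75e-10 and 6.06e-09). LGALS3, which encodes galectin-3, fell by 0.95 with IFNα, where 4.86% of all genes were called lower. CD200, another inhibitory ligand, fell by 2.56 with TNF and by 3.62 with IL-1β. Of 7 genes at the CD274 locus or known to stabilise PD-L1, 5 were tested (CMTM6, PLGRKT, RIC1, ERMP1 and UHRF2). edgeR called 0 of these 5 in each of the 10 comparisons with unstimulated cells, with 0 to 1 of them per comparison at an unadjusted p under 0.05 and 0 called by DESeq2.

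Among CD47 partners, THBS1, which encodes the ligand thrombospondin-1, fell with TNF and IL-1β (log2 fold changes of -0.89 and -2.13) and rose by 1.32 with OSM and 1.33 with IL-13. Its level was 1066 ± 333.2 CPM in unstimulated cells and 2652 ± 619.5 CPM with OSM (SD, n = 4 each). THBS2 rose by 0.86 with OSM and fell by 1.34 with IFNγ. Of 8 leukocyte receptors of the members only ITGA4, the α4 integrin subunit that binds VCAM1, passed the filter. It fell with TNF, IL-1β, IFNα, IFNγ and TGF-β1, with log2 fold changes of -2.90, -2.28, -1.33, -1.49 and -1.90, from 27.8 ± 8.16 CPM in unstimulated cells.

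A marker of another cell type moved with the interferons. CD68, a macrophage marker that other cells also express, stood at 58.7 ± 16.6 CPM with IFNα and 13.8 ± 5.07 CPM with IFNγ, against 2.85 ± 3.30 CPM in unstimulated libraries (SD, n = 4 each; adjusted p = 3.42e-05 and 0.0473). The whole leukocyte list summed to 37.8 to 73.4 CPM with IFNα, 8.26 to 20.5 CPM with IFNγ and 0 to 9.25 CPM in unstimulated libraries, with CD3E at 0 throughout. Of its 8 genes, only CD68 passed 3 counts in any IFNα or IFNγ library. In all libraries of the group, 6 genes were at 0 with IFNα and 5 with IFNγ. Apart from CD68, no gene of the list had more than 5 counts in any library (CD14), and PTPRC had at most 2. The part of CD68 in the interferon results was not tested.

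The 3 tested genes whose mean log2 CPM ran most like that of each member over the 11 groups are given as a description, with no test. For ICAM1 they were ICAM4-AS1 (Pearson r = 0.982), the gene on its opposite strand, UBE2E1 (0.963) and OR2I1P (0.962). For VCAM1 they were PAXIP1-AS2 (0.93), GUCY1A1 (0.915) and COBLL1 (0.912). CD274 ran most like TMEM243 (0.913), CARD16 (0.899) and PAQR5 (0.888), and PDCD1LG2 most like IFI44L (0.921), EIF4E2 (0.913) and ID3 (0.906). CD47 ran most like APOL6 (0.94), GSTK1 (0.937) and DTX3L (0.924), and ALCAM most like KLHL28 (0.86), MBNL1-AS1 (0.86) and OLMALINC (0.839). Among the members themselves the highest value was that of CD47 and VCAM1 (0.793), and that of CD274 and PDCD1LG2 was 0.584, over the same 11 group means.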

How the data were processed

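RNA of Ccd-18Co cells was sequenced in bulk as 44 libraries. Per the processing notes of the submitters, reads were checked with FastQC 0.11.9 and MultiQC 1.14 and quantified with kallisto 0.48.0, and the authors deposited estimated counts per gene symbol, not scaled for depth, of which 5.77% are not whole. Estimated counts were rounded here. The transcriptome release, the use of strand and the step from transcripts to genes are not given in the sources used here. CPM is the rounded count scaled by the library's total times its TMM normalization factor. Genes were kept with filterByExpr (9513 genes), normalized by TMM and fitted with edgeR 4.0.16 (R 4.3.3, glmQLFit, 1 coefficient per group, common biological coefficient of variation 0.331). DESeq2 1.42.0 was an alternative. The labels do not say that replicates are separate cultures, so p-values measure the spread between these samples, which may be technical. No pair of replicates was identical. The members and gene lists were chosen with earlier results of these data known. Named genes are the members, the 3 genes most like each, and from each list up to 2 called genes of largest change per comparison; 1 gene of the signalling list is not reported here. Limits at 0 use 3 counts per library and cover counting error only. Gene positions and transcript lengths are from GENCODE 44 on GRCh38, promoters from RefSeq.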

Additional observations from a re-analysis of the deposited data

Results flagged for a closer look

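Of 77 groups of 4 libraries (7 genes in 11 groups), 9 had 1 library whose gap to its neighbours exceeded Dixon's 95% critical value for 4 samples, where chance flags about 1 in 20, or 3.85 groups. PDCD1LG2 in IFNγ replicate 2 was at 9.08 CPM, against 70.7 to 81.4 CPM in the other 3. The other 8 all arise from groups in which the remaining 3 libraries were at 0. Such a group is flagged whatever its single count is, and a group with all 4 libraries at 0 cannot be flagged. The chance rate does not hold for these groups, so the 9 cannot be read against 3.85. ICAM1 was at 7.96 CPM in IL-17A replicate 3 (10 counts), 5.24 CPM in IL-22 replicate 2 (7 counts), 2.71 CPM in TGF-β1 replicate 3 and 1.70 CPM in IL-6 replicate 1, the latter 2 on 3 counts each. F11R was at 6.57 CPM in IFNα replicate 1 (12 counts), 2.55 CPM in IL-22 replicate 3 (2 counts), 0.775 CPM in IL-17A replicate 2 and 0.660 CPM in IL-13 replicate 1 (1 count each). The library with low PDCD1LG2 was also the farthest from its group over the 500 most variable genes, and what set it apart was not tested.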

How the results depend on the processing

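Of 27 calls of a member, none changed direction; under fixed alternatives 152 of 162 values kept their side of the threshold, and 178 of 216 did when a library was left out. Requiring an absolute log2 fold change above 1.5 left 3 members called with IFNγ, 2 of 3 with OSM, 1 with TGF-β1, 3 of 4 for IL-13 against IFNγ, 1 for IFNγ against IFNα and 0 for TNF against IFNγ. Fitting only the 8 libraries compared left 3 called with IFNγ, 2 of 3 with TGF-β1, 1 for IFNγ against IFNα and 2 for TNF against IFNγ, and gave 1 for TNF against IL-1β, as did testing all genes with any count. DESeq2 left 1 for IFNγ against IFNα, since it gave ICAM1 no adjusted p there. Leaving out a library gave 0 to 1 members with IL-1β, 2 to 4 with IFNα, 4 to 5 with IFNγ, 1 to 2 with IL-13, 1 to 3 with TGF-β1, 0 to 2 for IFNγ against IFNα and 2 to 3, in place of 4, for TNF against IFNγ. Causes of these changes were not tested.

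Libraries that share a replicate number did not deviate together (mean correlation 0.024 over 220 pairs, from -0.187 to 0.281), so the number was not used to pair them. With the replicate number as a block, IFNγ against IFNα had 1 member called, as ICAM1 moved to an adjusted p of 0.0523, and CD47 passed with IFNα (adjusted p = 0.0443).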
